A study of Mus musculus with 8 samples.

Results

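The keratin-associated protein (KAP) genes are the rows of the deposited table whose gene symbol begins with Krtap. There were 53 of them among 18901 genes, and 49 had at least 10 counts over the 8 mice and entered the test, as did 17124 genes in all. Krtap31-1, Krtap31-2, Krtap9-5 and Krtap20-2 fell under that minimum. RNA came from the cheek skin of 8 mice, 4 of the genotype TBX20fl/fl;K14-Cre and 4 TBX20fl/fl littermates, all 7-week-old females on a C57BL/6 background. In the TBX20fl/fl;K14-Cre mice the Cre recombinase is driven by the keratin 14 promoter and removes exons 2 and 3 of Tbx20 in keratinocytes, while the TBX20fl/fl mice carry the floxed alleles without Cre. Every mouse of both genotypes had its cheek shaved 1 day before and received 10 µg of BNP, B-type natriuretic peptide, in 10 µL into the skin of the cheek, and tissue was taken 5 h after a 30 min recording of behaviour. A vehicle-injected group was not analysed here, so the genotypes are compared after BNP only. One library was made from each mouse, and mice are given by genotype and label number.

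KAPs form the matrix between the keratin filaments of the hair shaft and are cross-linked to those filaments through disulfide bonds. They are made in the cortex and cuticle of the growing shaft, above the dividing cells of the hair bulb, so their transcripts come and go with the growth phase of the hair cycle, called anagen. By composition, KAPs are sorted into the high-sulfur and ultra-high-sulfur proteins, rich in cysteine, and the high glycine-tyrosine proteins. The genes are short, lie in clusters and have no introns in most cases. The K14-Cre deletion acts in the basal epidermis and in the follicle epithelium that gives rise to the shaft. Whole skin holds few cells of the shaft, and in bulk RNA fewer such cells and less RNA per cell cannot be told apart.

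The KAP genes lay in 5 places of GRCm38, the mouse genome build whose coordinates the deposited table uses. Chromosome 16 held 22 genes between 88608670 and 89571183, and chromosome 11 held 22 between 99550132 and 99993994. Chromosome 7 held the 5 Krtap5 genes between 142174532 and 142304503, chromosome 10 held Krtap12-1, Krtap10-4 and Krtap10-10 between 77720586 and 77837251, and Krtap28-13 lay alone on chromosome 1 from 83060930 to 83061921. In the GENCODE annotation all 53 had a transcript of a single exon, 304 to 1888 bases long. The span deposited for Krtap24-1, from 88608670 to 88638214, is far longer than its annotated transcript of 1575 bases, and its deposited strand is plus where RefSeq has minus, so what its counts measure is uncertain. Reads of 50 bases can be assigned to a wrong copy where genes share sequence. Of the 53 genes, 14 shared no stretch of 50 bases with any other annotated transcript, 14 shared more than 25% of theirs, and the median was 8.77%. Values of these 14 are therefore uncertain, above all those of Krtap4-13, at 81.3%, Krtap5-1, at 54.3%, Krtap10-10, at 44.1%, Krtap2-4, at 43.8%, and Krtap10-4, at 42.0%. Krtap8-1, Krtap7-1, Krtap22-2, Krtap14, Krtap16-1, Krtap17-1, Krtap19-4 and Krtap19-5 shared none.

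The promoters of 8 KAP genes are shown because these genes carry the patterns described below, and each is the stretch of 70 bases that ends just before the start of the RefSeq gene on GRCm38.p6. Capitals mark TATAAA, the core of the TATA box, which sets the place where transcription starts. The genes are Krtap8-1 (chr16:89487953-89488022, minus strand) and Krtap11-1 (chr16:89571184-89571253, minus strand) from the outer part of the chromosome 16 cluster, Krtap22-2 (chr16:89010760-89010829, minus strand), Krtap15 (chr16:88828939-88829008, plus strand), Krtap6-2 (chr16:89420112-89420181, minus strand) and Krtap21-1 (chr16:89403775-89403844, minus strand) from its inner part, and Krtap16-1 (chr11:99986594-99986663, minus strand) and Krtap3-2 (chr11:99556854-99556923, minus strand) from the chromosome 11 cluster.
Krtap8-1: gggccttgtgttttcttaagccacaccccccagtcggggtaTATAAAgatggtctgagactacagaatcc
Krtap11-1: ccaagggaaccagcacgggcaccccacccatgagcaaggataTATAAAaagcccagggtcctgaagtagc
Krtap22-2: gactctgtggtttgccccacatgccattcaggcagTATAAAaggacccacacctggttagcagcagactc
Krtap15: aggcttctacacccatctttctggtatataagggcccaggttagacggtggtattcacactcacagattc
Krtap6-2: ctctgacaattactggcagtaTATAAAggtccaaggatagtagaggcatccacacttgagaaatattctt
Krtap21-1: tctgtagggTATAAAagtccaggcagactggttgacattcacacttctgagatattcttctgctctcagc
Krtap16-1: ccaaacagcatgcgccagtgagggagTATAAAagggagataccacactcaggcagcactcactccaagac
Krtap3-2: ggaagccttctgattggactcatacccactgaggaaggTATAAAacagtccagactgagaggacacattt

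A RefSeq promoter was found for 48 of the 53 genes, and the 250 bases before each start were searched on both strands. TATAAA stood in 38 of the 48 (79.2%) and in 13.0% of 27025 mouse promoters of the same length. Within the 50 bases next to the start it stood in 31 of the 48 (64.6%) and in 3.78% of all promoters. Krtap15 is the one of the 8 printed promoters without these exact letters, though it holds TATAAG, which differs in the last letter only. Motifs of hair follicle regulators and the T-box motif were searched in the same windows. TTTATNG, read by Hoxc13, stood in 6 (12.5%) against 10.2% of all promoters, and can overlap TATAAA by its letters on the opposite strand. CTTTGAA, read by Lef1, stood in 7 (14.6%) against 4.64%. AGGTGTG, the T-box motif the study names for TBX20, stood in 3 (6.25%), those of Krtap22-2, Krtap5-1 and Krtap5-5, against 5.14% of all promoters. These matches are descriptions of letters in a window and carry no test.

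One library stood apart from the others. Totals were 16056282 to 19880654 estimated counts in a library, so that 3 counts, taken as the floor of detection, are 0.151 to 0.187 CPM (counts-per-million), and floors cover counting error only. In TBX20fl/fl mouse 2, the library of lowest total, the factor from TMM was 0.735, while the other 7 had 1.01 to 1.07. This library favoured short transcripts, with a length trend that raised KAP genes by a median of 0.70 on the log2 scale against −0.28 to 0.16 in the others. The deleted gene, Tbx20, reached 2.09 estimated counts at most in the TBX20fl/fl;K14-Cre libraries and 3.01 at most in the TBX20fl/fl libraries, too few at this depth to check the genotype labels.

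**Figure D1:**
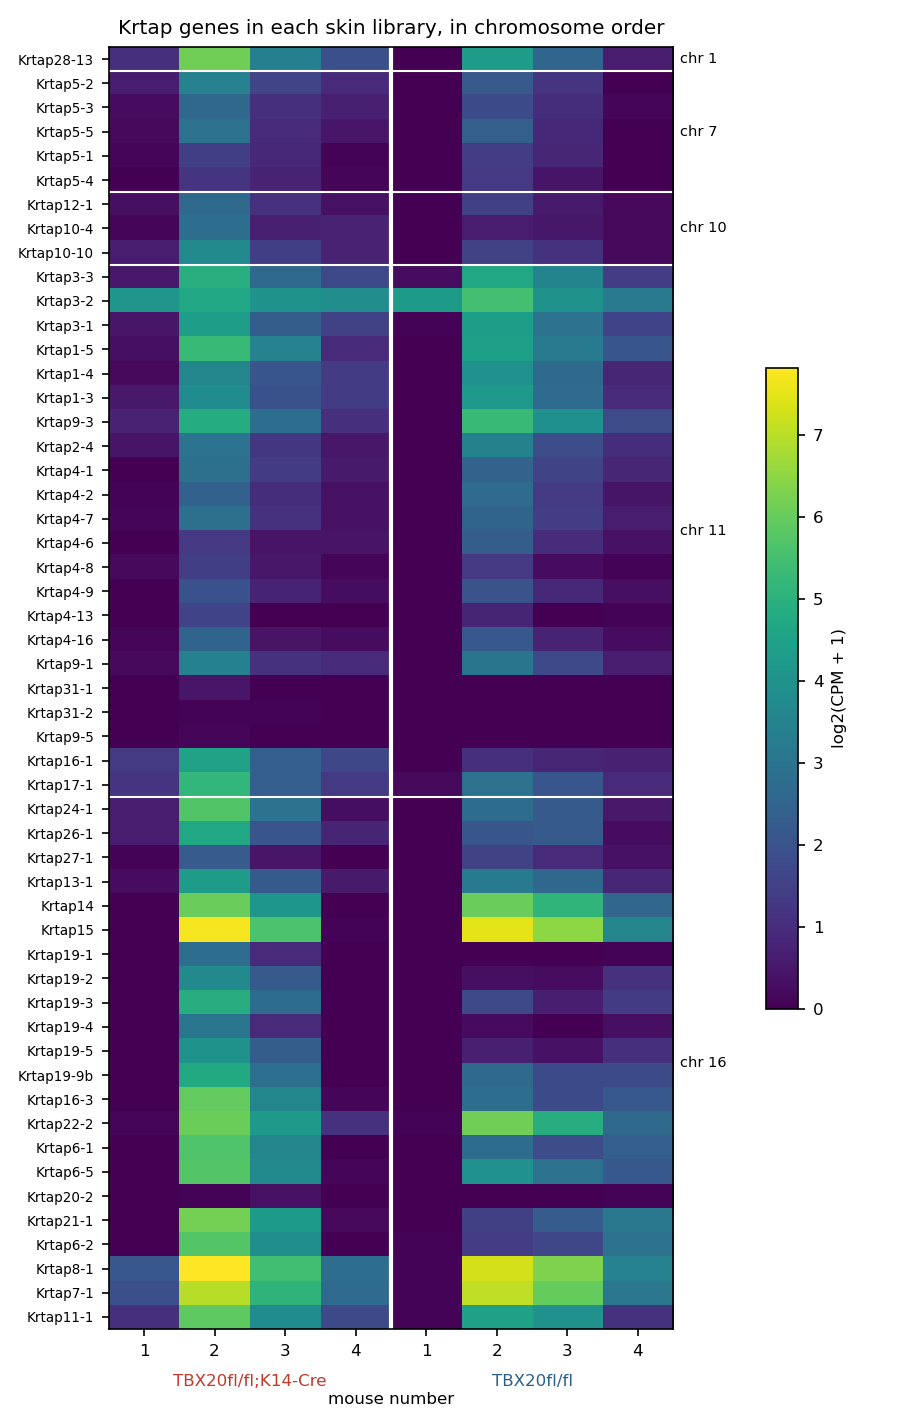
Level of each of the 53 KAP genes in each library, as log2(CPM + 1), where CPM is the count scaled to library size with TMM, with genes in chromosome order and mice in columns. Mice 2 and 3 of both genotypes are bright over most of the rows, mouse 1 of TBX20fl/fl is dark in all rows but Krtap3-2, and the inner genes of chromosome 16 are dark in mice 1 and 4 of TBX20fl/fl;K14-Cre.

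The amount of KAP transcript differed far more between mice than between genotypes. Levels are given in CPM after TMM scaling, which corrects for library composition, unless stated otherwise. Without Krtap3-2, which is described separately, the other 52 genes summed to 17.7, 1584, 338 and 39.8 CPM in TBX20fl/fl;K14-Cre mice 1 to 4, and to 0.643, 909, 416 and 91.4 CPM in TBX20fl/fl mice 1 to 4. Mouse 2 was thus the highest and mouse 1 the lowest in both genotypes, and the genotypes overlapped over most of their range. TBX20fl/fl mouse 1 had 13.6 estimated counts over the 52 genes, 43 of which were at 0, whereas TBX20fl/fl;K14-Cre mouse 2 had 33302 counts and none at 0. All 53 genes together took 0.171% of the counts of TBX20fl/fl;K14-Cre mouse 2 and 0.00192% of those of TBX20fl/fl mouse 1.

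The order of the mice was shared by the genes and by the genotypes. The strict order 2 > 3 > 4 > 1 held in both genotypes for 27 of the 49 tested KAP genes (55.1%) and for 1.24% of all genes tested. Mouse 2 was the highest of both genotypes in 42 KAP genes (85.7%) against 18.2% of all genes, and in TBX20fl/fl;K14-Cre skin it was the highest for all 49. These shares describe 8 animals, and KAP genes expressed by the same cells are not independent of each other. Between mice of the same number, 30 of the 49 genes were higher in TBX20fl/fl;K14-Cre skin for number 1, 38 for number 2, 26 for number 3 and 20 for number 4.

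Per transcript length, as FPKM (fragments per kilobase of transcript, scaled to library depth), the most abundant KAP transcripts were those of Krtap8-1, a high glycine-tyrosine gene (mean 118 FPKM over the 8 mice), Krtap15 (80.0), Krtap7-1 (75.3) and Krtap22-2 (66.4), all on chromosome 16. The median of the 49 tested genes was 4.97 FPKM. Krtap8-1 stood at 6.56, 451, 85.0 and 12.2 FPKM in TBX20fl/fl;K14-Cre mice 1 to 4 and at 0.10, 220, 147 and 19.7 FPKM in TBX20fl/fl mice 1 to 4. In each genotype the level in mouse 2 was the highest and that in mouse 1 the lowest. The spread between mice of a genotype was far wider than the difference between the genotype means of Krtap8-1, which were 69.1 CPM ± 105 (SD, n = 4 mice) for TBX20fl/fl;K14-Cre and 61.6 CPM ± 73.4 (SD, n = 4 mice) for TBX20fl/fl.

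**Figure D2:**
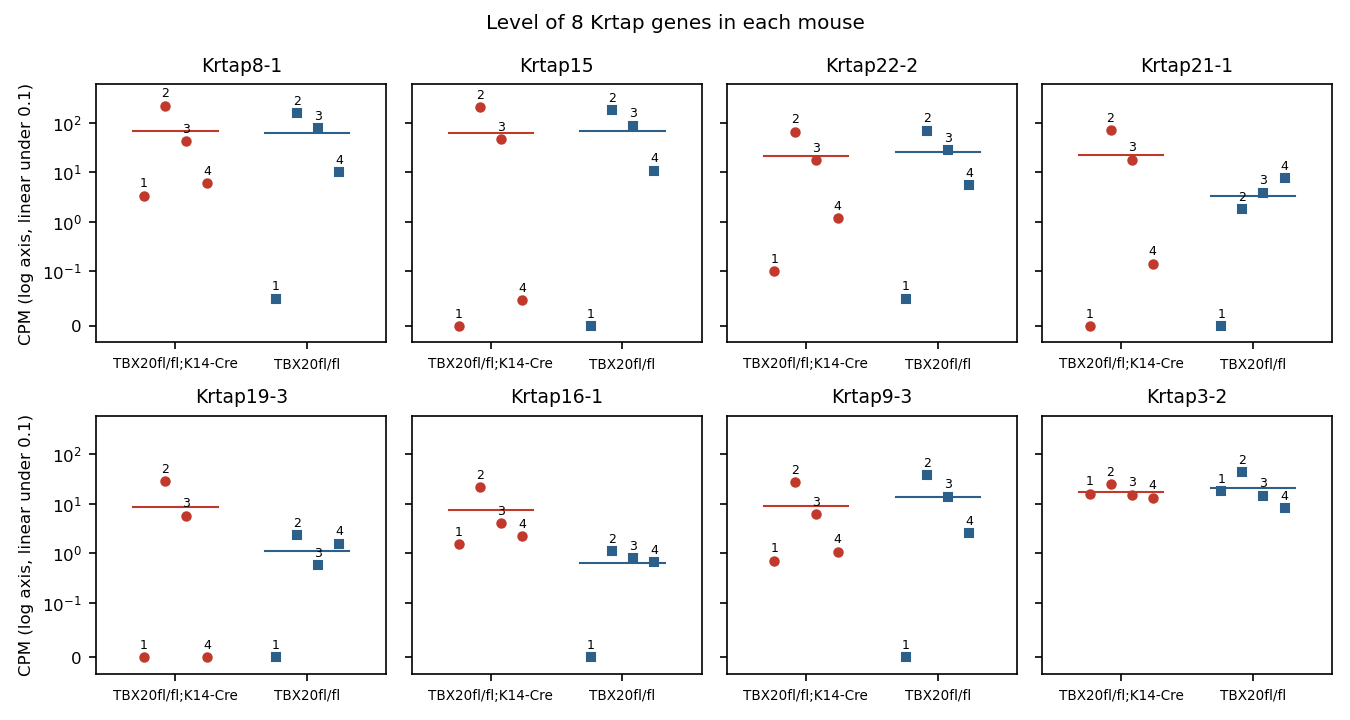
CPM of 8 KAP genes in each mouse (numbered points) with the mean of each genotype (line), on an axis that is logarithmic above 0.1 CPM and linear below. Krtap16-1 is the gene whose genotypes do not overlap, Krtap3-2 keeps to 8.22 to 43.8 CPM in every mouse, and the other 6 genes overlap between the genotypes.

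No KAP gene differed between the genotypes past the threshold. In edgeR's quasi-likelihood test, with p-values adjusted over all 17124 genes by the Benjamini-Hochberg method, the smallest adjusted p of a KAP gene was 0.498, and 0 genes of the whole table (0%) were called, while 1431 had an unadjusted p under 0.05. DESeq2's Wald test called 10 genes of the table, 0 of them KAP genes. At an unadjusted p under 0.05, 4 of the 49 KAP genes were higher in TBX20fl/fl;K14-Cre skin, against 2.45% of all genes tested, and 0 were lower, against 5.91%. The 4 genes were Krtap16-1, Krtap19-1, Krtap19-4 and Krtap10-4. Krtap19-1 and Krtap19-4, with 1.01 and 7 counts over all TBX20fl/fl mice, passed the minimum of 10 counts only through the TBX20fl/fl;K14-Cre mice, as did Krtap4-13, so the count of 4 cannot be read against the share of all genes. The median log2 fold change of the 49 genes was 0.72 and 12 of them were below 0, while the median of all genes tested was 0.03. The median rested on single mice. It was −0.73, with 34 genes below 0, without TBX20fl/fl;K14-Cre mouse 2, and 2.18, with 0 below 0, without TBX20fl/fl mouse 2. With the trend over transcript length removed from each mouse the median was 1.10, with 4 genes below 0, while the median of all genes moved to −0.15.

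With the mouse number as a block, standard errors were smaller for 45 of the 49 KAP genes. No source says what mice of the same number share. The p-values of this model hold only if the number marks a real grouping, which is not known. Under this model 10 KAP genes were higher in TBX20fl/fl;K14-Cre skin at an unadjusted p under 0.05, against 3.52% of all genes, and 0 were lower, against 6.54%. They were Krtap16-1, Krtap28-13, Krtap19-1, Krtap10-4, Krtap10-10, Krtap12-1, Krtap17-1, Krtap5-2, Krtap24-1 and Krtap26-1, which include all 3 genes of chromosome 10. Krtap19-1 passed the minimum of counts only through the TBX20fl/fl;K14-Cre mice, so the count of 10 cannot be read against the share of all genes. The smallest adjusted p was 0.405, the median log2 fold change of the 49 genes was 0.47, and 14 were below 0. Without both mice numbered 2, the blocked model had 4 of 48 KAP genes higher at an unadjusted p under 0.05, against 5.16% of all genes, and 2 lower, against 6.47%. Their median was then −0.050, with 23 above and 25 below 0.

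**Figure D3:**
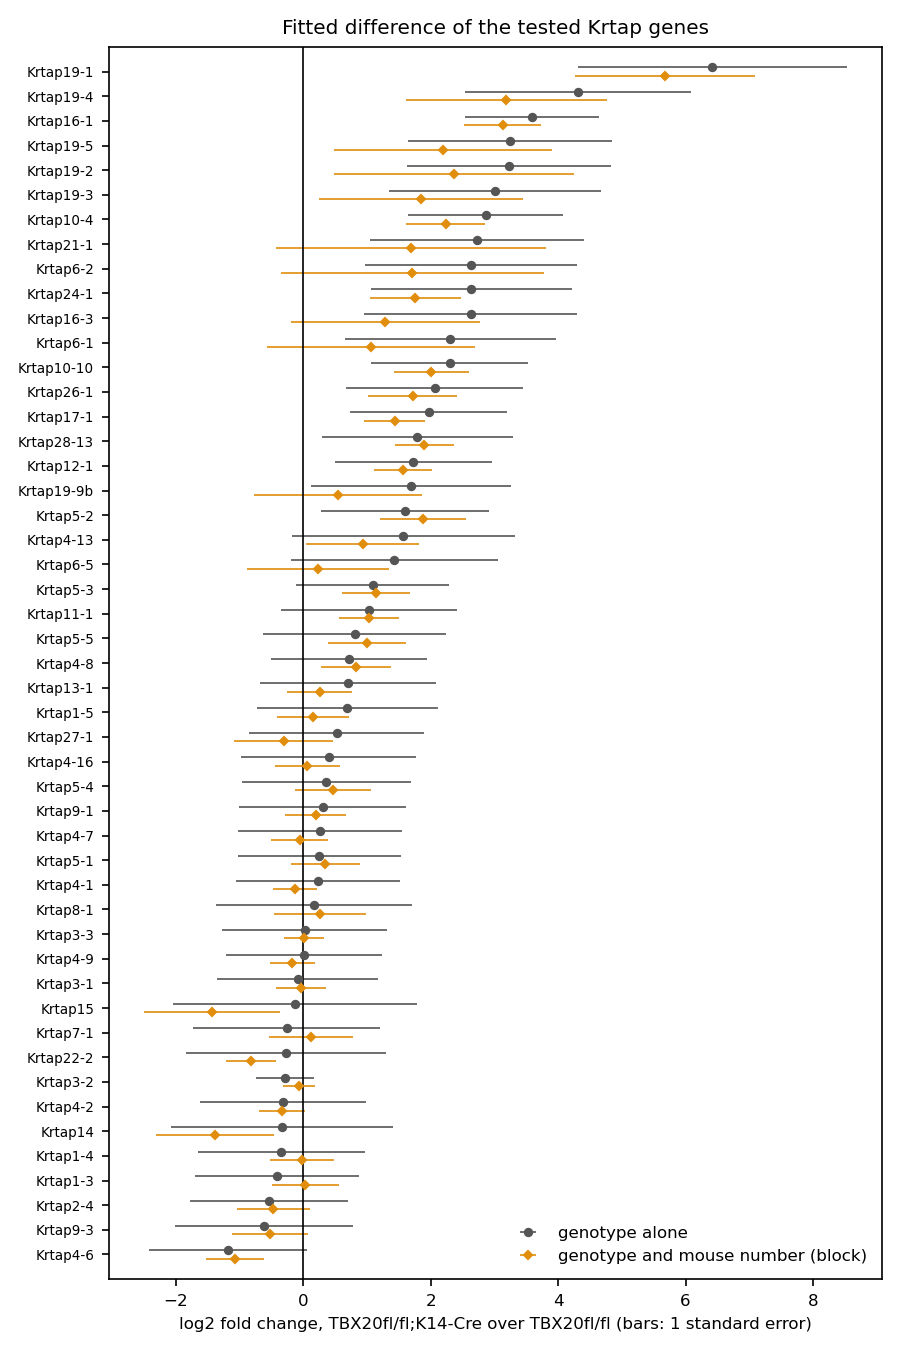
Log2 fold change of TBX20fl/fl;K14-Cre over TBX20fl/fl for the 49 tested KAP genes, with 1 standard error on each side, from edgeR with genotype alone (circles) and with the mouse number as a block (diamonds). Krtap19-1, Krtap19-4 and Krtap16-1 stand at the top, genes of chromosome 11 and the trio Krtap14, Krtap15 and Krtap22-2 at the bottom, and standard errors are narrower under the block for 45 of the 49 genes, the exceptions being Krtap19-2, Krtap19-5, Krtap21-1 and Krtap6-2.

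Krtap16-1, a high-sulfur gene of chromosome 11 (from 99984703 to 99986593, minus strand), was the KAP gene with the smallest p. It stood at 1.51, 21.7, 4.05 and 2.25 CPM in TBX20fl/fl;K14-Cre mice 1 to 4 and at 0, 1.10, 0.786 and 0.651 CPM in TBX20fl/fl mice 1 to 4. All 4 TBX20fl/fl;K14-Cre mice lay above all 4 TBX20fl/fl mice, which held for this KAP gene only of the 49. Over all genes tested 3.65% were without overlap and higher in TBX20fl/fl;K14-Cre skin and 3.27% without overlap and lower, so the 1 KAP gene is no more than that background. The log2 fold change was 3.59 ± 1.05 (SE), with an unadjusted p of 0.00732 and an adjusted p of 0.498 in edgeR's quasi-likelihood test. The unadjusted p lay between 7e-04 and 0.0249 over the 21 alternatives examined, while the log2 fold change went down to 1.52 on the log2(FPKM + 1) scale of limma.

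The proportion of Krtap16-1 to other KAP genes was examined as well. Its counts were 0.443, 0.0968, 0.0958 and 0.372 of those of Krtap8-1 in TBX20fl/fl;K14-Cre mice 1 to 4, and 0.00694, 0.0102 and 0.0650 in TBX20fl/fl mice 2 to 4. The ratio in each TBX20fl/fl;K14-Cre mouse was above that in each TBX20fl/fl mouse with enough counts, and TBX20fl/fl mouse 1 had 1 count of Krtap8-1 and none of Krtap16-1. Counts of Krtap16-1 in TBX20fl/fl skin were 0 to 15 in a library. Of the 49 tested KAP genes 10 had a ratio to Krtap8-1 that was higher in every TBX20fl/fl;K14-Cre mouse than in TBX20fl/fl mice 2 to 4, so the trait was not particular to Krtap16-1, and Krtap14 had one that was lower in every such mouse. Over all genes tested 0.444% were higher and 0.0701% lower in this way. Krtap8-1 itself differed widely between mice, so a gene at a like level in all mice cannot meet either condition. The other 9 were Krtap28-13, Krtap12-1, Krtap10-4, Krtap10-10, Krtap17-1, Krtap26-1, Krtap11-1, Krtap5-2 and Krtap5-3. For Krtap11-1, an outer gene of chromosome 16, the ratio was 0.313, 0.257, 0.308 and 0.387 in TBX20fl/fl;K14-Cre mice 1 to 4 and 0.132, 0.187 and 0.12 in TBX20fl/fl mice 2 to 4. These ratios were chosen after the values were seen and have no test.

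Krtap19-1, Krtap19-4 and Krtap19-5 encode small glycine- and tyrosine-rich KAPs of the inner part of the chromosome 16 cluster. In TBX20fl/fl;K14-Cre mice 1 to 4 Krtap19-1 had 0, 127, 19.6 and 0 estimated counts, and in TBX20fl/fl mice 1 to 4 it had 0, 0, 0 and 1.01, so its fitted fold change depends on the prior count of the model (unadjusted p = 0.0134 in edgeR's quasi-likelihood test). Of its sequence 16.8% was shared with Krtap19-2 and Krtap16-3. Krtap19-4 had 0, 156, 20 and 0 counts against 0, 2, 0 and 5 (unadjusted p = 0.0372 in edgeR's quasi-likelihood test), and Krtap19-5 had 0, 319, 83 and 0 against 0, 7, 6 and 22 (unadjusted p = 0.0724). In all 3 genes the high values are those of TBX20fl/fl;K14-Cre mice 2 and 3 alone, while mice 1 and 4 of that genotype had no read. Without TBX20fl/fl;K14-Cre mouse 2 the p of Krtap19-1 was 0.0598 and that of Krtap19-4 was 0.316 in the same test.

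Krtap10-4, an ultra-high-sulfur gene of chromosome 10, stood at 0.101, 6.04, 0.620 and 0.702 CPM in TBX20fl/fl;K14-Cre mice 1 to 4 and at 0, 0.509, 0.419 and 0.150 CPM in TBX20fl/fl mice 1 to 4. Its groups overlapped through TBX20fl/fl;K14-Cre mouse 1. The log2 fold change was 2.86 ± 1.21 (SE; unadjusted p = 0.0415 and adjusted p = 0.498 in edgeR's quasi-likelihood test), and the p was 0.341 without TBX20fl/fl;K14-Cre mouse 2. The gene shares much of its sequence with its neighbour Krtap10-10 and with unnamed gene models, and its values may include their reads.

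By protein composition, the 16 tested high glycine-tyrosine genes had a median log2 fold change of 2.47 with 15 above 0, the 16 ultra-high-sulfur genes one of 0.34 with 13 above 0, and the 17 high-sulfur genes one of 0.02 with 9 above 0. At an unadjusted p under 0.05 there were 2, 1 and 1 genes higher in these classes, against 2.45% of all genes, and none lower, against 5.91%. The 2 glycine-tyrosine genes were Krtap19-1 and Krtap19-4. Both passed the minimum of counts only through the TBX20fl/fl;K14-Cre mice, so their number cannot be read against that share. No class was tested as a whole. Without TBX20fl/fl;K14-Cre mouse 2 the medians were 0.29, −1.48 and −1.603, and without TBX20fl/fl mouse 2 they were 2.91, 1.86 and 1.201. The glycine-tyrosine class came first in these fits, while the sign of both sulfur classes turned, and the order did not hold without both mice numbered 2 and with the block, where the medians were 0.177, 0.182 and −0.117 with 8 of 16 glycine-tyrosine genes below 0. The class follows composition alone, high glycine-tyrosine at 35% or more of glycine and tyrosine, and ultra-high sulfur at 30% or more of cysteine among the rest. What remained is called high sulfur here with no minimum of cysteine, and runs from 4% in Krtap15 to 29.8%. Krtap5-2, Krtap5-3 and Krtap28-13 passed both limits and count as glycine-tyrosine only by that order, and Krtap7-1, usually placed with the glycine-tyrosine proteins, fell under high sulfur at 29.9%.

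The abundant glycine-tyrosine genes did not share 1 pattern. Krtap22-2 stood at 0.101, 66.0, 17.6 and 1.17 CPM in TBX20fl/fl;K14-Cre mice 1 to 4 and at 0.0494, 69.3, 28.4 and 5.56 CPM in TBX20fl/fl mice 1 to 4. The genotypes were close in mice numbered 2 in CPM, and in mice 3 and 4 TBX20fl/fl was higher. In FPKM, without TMM, Krtap22-2 stood at 212 in TBX20fl/fl;K14-Cre mouse 2 and at 154 in TBX20fl/fl mouse 2. Krtap21-1 stood at 0, 71.1, 18.1 and 0.140 CPM against 0, 1.78, 3.88 and 7.67 CPM. Krtap21-1 was thus highest in mouse 2 of one genotype and in mouse 4 of the other, and the groups overlapped. Krtap16-3 stood at 0, 61.0, 10.97 and 0.0936 CPM against 0, 6.10, 2.41 and 3.46 CPM, and Krtap19-3 at 0, 28.4, 5.72 and 0 against 0, 2.29, 0.576 and 1.55. Both were highest in TBX20fl/fl;K14-Cre mouse 2, and mouse 1 of each genotype was at 0. The log2 fold changes were 2.73 ± 1.68 (SE) for Krtap21-1, 2.63 ± 1.67 for Krtap16-3, 3.01 ± 1.66 for Krtap19-3 and −0.27 ± 1.57 for Krtap22-2, with adjusted p-values of 0.498 to 0.929 in edgeR's quasi-likelihood test.

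The chromosome 16 cluster fell into parts that varied separately from mouse to mouse. The 15 inner genes, from Krtap14 to Krtap6-2 (88825291 to 89420111), include the Krtap19, Krtap6 and Krtap16-3 glycine-tyrosine genes, and the 7 outer genes are Krtap24-1, Krtap26-1, Krtap27-1 and Krtap13-1 on one side and Krtap8-1, Krtap7-1 and Krtap11-1 on the other. These sets were chosen after the values were seen and have no test. In TBX20fl/fl;K14-Cre mice 1 to 4 the inner genes summed to 2, 15096, 3544 and 33.2 estimated counts, and the outer genes to 169, 10637, 2149 and 330. In TBX20fl/fl mice 2 to 4 the inner genes summed to 4167, 3258 and 1056 counts and the outer genes to 3910, 3172 and 411, while mouse 1 had 2 and 3 counts. TBX20fl/fl;K14-Cre mice 1 and 4 therefore had almost none of the inner transcripts beside a clear signal of the outer ones, with inner counts at 0.0118 and 0.101 of the outer counts. This ratio was 1.03 to 2.57 in TBX20fl/fl;K14-Cre mice 2 and 3 and TBX20fl/fl mice 2, 3 and 4.

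Krtap15, an inner gene that falls in the high-sulfur class as the remainder (from 88829009 to 88829844, plus strand), shows this on its own. It stood at 0, 207, 47.5 and 0.0468 CPM in TBX20fl/fl;K14-Cre mice 1 to 4 and at 0, 181, 88.0 and 10.8 CPM in TBX20fl/fl mice 1 to 4. Its counts were 0.921 and 1.12 of those of the outer gene Krtap8-1 in TBX20fl/fl;K14-Cre mice 2 and 3 and 1.08 to 1.14 in TBX20fl/fl mice 2 to 4. In TBX20fl/fl;K14-Cre mouse 4 it had 1 count beside 129 of Krtap8-1, a ratio of 0.00775, and in mouse 1 none beside 67. Krtap14, its neighbour, likewise had 0 counts in mice 1 and 4 of that genotype and 99 in TBX20fl/fl mouse 4.

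Within the inner part, the 12 genes other than Krtap14, Krtap15 and Krtap22-2 differed between the genotypes in mice 2 and 3. Their summed counts were 1.13 and 1.08 of those of the 3 named genes in TBX20fl/fl;K14-Cre mice 2 and 3, 0.123 and 0.140 in TBX20fl/fl mice 2 and 3, and 1.49 in TBX20fl/fl mouse 4. The 3 genes themselves summed to 337 and 81.4 CPM in TBX20fl/fl;K14-Cre mice 2 and 3 and to 314 and 150 CPM in TBX20fl/fl mice 2 and 3, whereas the other 12 summed to 381 and 87.7 CPM against 38.8 and 20.96 CPM. In mice numbered 4 the 12 genes went the other way, with 0.328 CPM in TBX20fl/fl;K14-Cre skin and 31.6 CPM in TBX20fl/fl skin. All 11 tested genes of the 12 had a log2 fold change above 0 (1.43 to 6.42, the last being that of Krtap19-1, which depends on the prior count) and the 3 others one of −0.34 to −0.13, and none passed the adjusted threshold. The median of the 11 was 2.73, and it was 0.85 with 2 below 0 without TBX20fl/fl;K14-Cre mouse 2 and −0.15 with 6 below 0 without both mice numbered 2 and with the block. Krtap14, Krtap15 and Krtap22-2 moved to −1.39, −1.43 and −0.82 with the block (adjusted p of 0.405 to 0.471 in edgeR's quasi-likelihood test). Their median was −2.01 without both mice numbered 2 and with the block, where 2 of the 3 were lower at an unadjusted p under 0.05, against 6.47% of all genes, and 0.91 without TBX20fl/fl mouse 2.

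**Figure D4:**
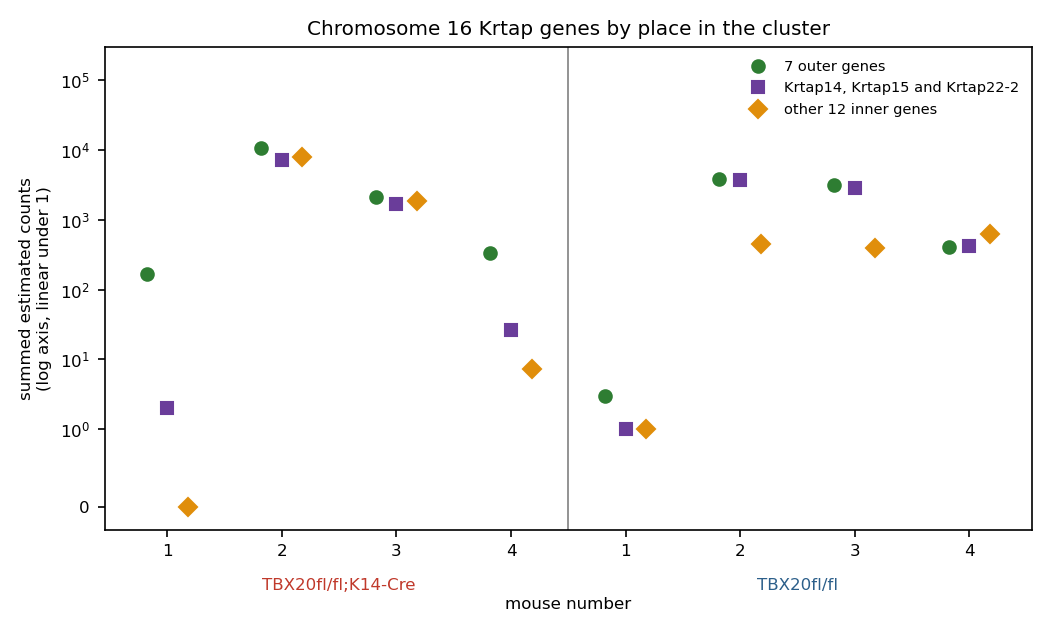
Summed estimated counts of the 7 outer genes, of Krtap14, Krtap15 and Krtap22-2, and of the other 12 inner genes of chromosome 16 in each mouse, on an axis that is logarithmic above 1 count and linear below. The 12 inner genes are level with the other sets in mice 2 and 3 of TBX20fl/fl;K14-Cre and mouse 4 of TBX20fl/fl, and below them in the other mice except TBX20fl/fl mouse 1, where all sets have 1 to 3 counts.

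The chromosome 11 genes, mostly of the sulfur-rich Krtap1, Krtap3, Krtap4 and Krtap9 families, had a median log2 fold change of 0.02, with 11 of the 19 tested above 0. That median rested on single mice, as it was −1.69 with 18 of 19 below 0 without TBX20fl/fl;K14-Cre mouse 2 and 1.21 with all 19 above 0 without TBX20fl/fl mouse 2. The 21 tested genes of chromosome 16 had medians of −0.21 and 2.50 in these fits. Krtap9-3 stood at 0.704, 27.4, 6.15 and 1.08 CPM in TBX20fl/fl;K14-Cre mice 1 to 4 and at 0, 38.4, 14.04 and 2.56 CPM in TBX20fl/fl mice 1 to 4. Krtap1-3 stood at 0.453, 12.9, 2.91 and 1.59 CPM against 0, 17.6, 5.71 and 0.902, and Krtap1-4 at 0.151, 11.1, 3.29 and 1.59 against 0, 14.7, 5.55 and 0.802. These 3 genes had the lowest fold changes among those with a mean count of at least 50, −0.62 ± 1.40 (SE), −0.41 ± 1.29 and −0.34 ± 1.31, and their groups overlapped. Krtap9-1 stood at 0.151, 9.84, 1.14 and 0.936 CPM against 0, 7.29, 2.31 and 0.551, with a log2 fold change of 0.31 ± 1.31. Krtap9-3, Krtap1-3 and Krtap1-4 share short stretches with each other, and Krtap9-1 shares 36.6% of its sequence with unnamed gene models.

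Krtap17-1, an ultra-high-sulfur gene at the end of the chromosome 11 cluster, lies next to Krtap16-1. It stood at 1.31, 35.5, 4.01 and 1.498 CPM in TBX20fl/fl;K14-Cre mice 1 to 4 and at 0.148, 6.78, 3.30 and 0.952 CPM in TBX20fl/fl mice 1 to 4. It was the higher of the genotypes in all 4 pairs of mice of 1 number, but mouse 2 of TBX20fl/fl lay above 3 of the TBX20fl/fl;K14-Cre mice. In edgeR's quasi-likelihood test the log2 fold change was 1.97 ± 1.23 (SE), with unadjusted p = 0.142 and adjusted p = 0.502, for genotype alone, and 1.43 ± 0.48 (SE), with unadjusted p = 0.0218 and adjusted p = 0.405, with the block. It was −0.25 with genotype alone when TBX20fl/fl;K14-Cre mouse 2 was left out.

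Krtap7-1 and Krtap14 complete the abundant genes. Krtap7-1, an outer gene, stood at 2.77, 126, 33.1 and 5.62 CPM in TBX20fl/fl;K14-Cre mice 1 to 4 and at 0.0494, 132, 61.0 and 7.62 CPM in TBX20fl/fl mice 1 to 4. Krtap14 stood at 0, 64.3, 16.3 and 0 CPM against 0, 64.2, 33.3 and 4.96. In mice 2 of the genotypes these CPM levels were nearly equal, and in mice 3 and 4 those of TBX20fl/fl were higher. The near equality depended on the scaling. In FPKM, without TMM, mouse 2 of TBX20fl/fl;K14-Cre was higher, at 234 against 170 for Krtap7-1 and 84.9 against 58.5 for Krtap14. The log2 fold changes were −0.26 ± 1.47 (SE), −0.34 ± 1.74 for Krtap14, −0.13 ± 1.92 for Krtap15 and 0.17 ± 1.54 for Krtap8-1 with genotype alone, none beyond its standard error. With the block Krtap14 stood at −1.39 ± 0.93 (SE) and Krtap15 at −1.43 ± 1.07, both beyond it.

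Krtap3-2 did not follow the family, and it is singled out here after its values were seen. This high-sulfur gene of chromosome 11 (from 99555823 to 99556853, minus strand) stood at 15.9, 24.8, 15.3 and 13.3 CPM in TBX20fl/fl;K14-Cre mice 1 to 4 and at 17.96, 43.8, 14.7 and 8.22 CPM in TBX20fl/fl mice 1 to 4. It had 363 counts in TBX20fl/fl mouse 1, where the other 52 KAP genes together had 13.6. Its order was 2 > 1 > 3 > 4 in both genotypes, and its log2 fold change was −0.28 ± 0.45 (SE; adjusted p = 0.730 in edgeR's quasi-likelihood test). Of its sequence 28.9% is shared with Krtap3-1 and Krtap3-3, which stood at 0.0494 and 0.198 CPM in TBX20fl/fl mouse 1.

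Other genes of the hair shaft were compared on lists of textbook markers. Of the 15 hair shaft keratins in the table, 14 had a log2 fold change above 0 (median 1.18), 1 (Krt82) was higher at an unadjusted p under 0.05 with genotype alone (2.45% of all genes) and 7 were with the block (3.52%). Without TBX20fl/fl;K14-Cre mouse 2 the median was −0.29 and 11 of the 15 were below 0. None passed the adjusted threshold. Krt35, a cortex keratin, stood at 1.36, 136, 15.4 and 3.56 CPM in TBX20fl/fl;K14-Cre mice 1 to 4 and at 0.742, 8.73, 12.3 and 1.603 CPM in TBX20fl/fl mice 1 to 4, and Krt33a at 1.91, 85.5, 18.8 and 5.34 against 0.396, 28.3, 19.6 and 1.65. Both were highest in TBX20fl/fl;K14-Cre mouse 2, and both had a higher level in mouse 3 than in mice 1 and 4 in each genotype. The list summed to 26.0 to 757 CPM in TBX20fl/fl;K14-Cre skin and 11.6 to 231 CPM in TBX20fl/fl skin.

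The inner root sheath, the layer that moulds the growing shaft, was followed by 9 genes. All 9 of its genes in the table had a log2 fold change above 0 (median 3.13), and 6 were higher at an unadjusted p under 0.05, against 2.45% of all genes. Without TBX20fl/fl;K14-Cre mouse 2 all 9 were still above 0 (median 0.75) and 0 had such a p, against 1.41%. With the block all 9 had an unadjusted p under 0.05 (median 2.01), against 3.52%, also without both mice numbered 2 (median 1.33), against 5.16%. Krt71 stood at 20.6, 1058, 153 and 32.9 CPM in TBX20fl/fl;K14-Cre mice 1 to 4 and at 7.72, 59.4, 58.9 and 14.7 CPM in TBX20fl/fl mice 1 to 4. Krt25 stood at 10.6, 646, 79.4 and 15.2 CPM against 3.81, 37.4, 35.7 and 5.31. The list summed to 3912 CPM in TBX20fl/fl;K14-Cre mouse 2 and to 268 CPM in TBX20fl/fl mouse 2, against 1584 and 909 CPM of the KAP genes. The length trend raised the short KAP genes by a median of 0.70 (log2) in TBX20fl/fl mouse 2 and by 0.097 in TBX20fl/fl;K14-Cre mouse 2, and its part in these proportions was not tested.

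Of 14 hair shaft partner genes, among them S100a3 of the cuticle, 12 were above 0 (median 1.25, and 0.16 with 8 above 0 without TBX20fl/fl;K14-Cre mouse 2) and 4 were higher at an unadjusted p under 0.05 (2.45% of all genes), 0 without TBX20fl/fl;K14-Cre mouse 2 (1.41%) and 4 with the block (3.52%). S100a3 stood at 6.34, 343, 28.5 and 8.89 CPM in TBX20fl/fl;K14-Cre mice 1 to 4 and at 2.08, 46.1, 26.5 and 2.61 CPM in TBX20fl/fl mice 1 to 4. All 17 genes of the hair cortex regulator list were above 0 (median 0.76, and 0.31 without TBX20fl/fl;K14-Cre mouse 2), and in the same fits 9, 2 and 3 of them had an unadjusted p under 0.05. The list is broad and also holds the signals Shh and Bmp4 and the receptors Bmpr1a and Vdr, so it does not stand for the cortex alone. Without both mice numbered 2 and with the block, 13 of the 17 were above 0. Their sum was highest in TBX20fl/fl;K14-Cre mouse 2, at 885 CPM, and lowest in TBX20fl/fl mouse 2, at 361 CPM. Bmpr1a, a receptor expressed widely in skin, gave 159 of the 361 CPM, and the part of the composition and length trend of that library was not tested.

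**Figure D5:**
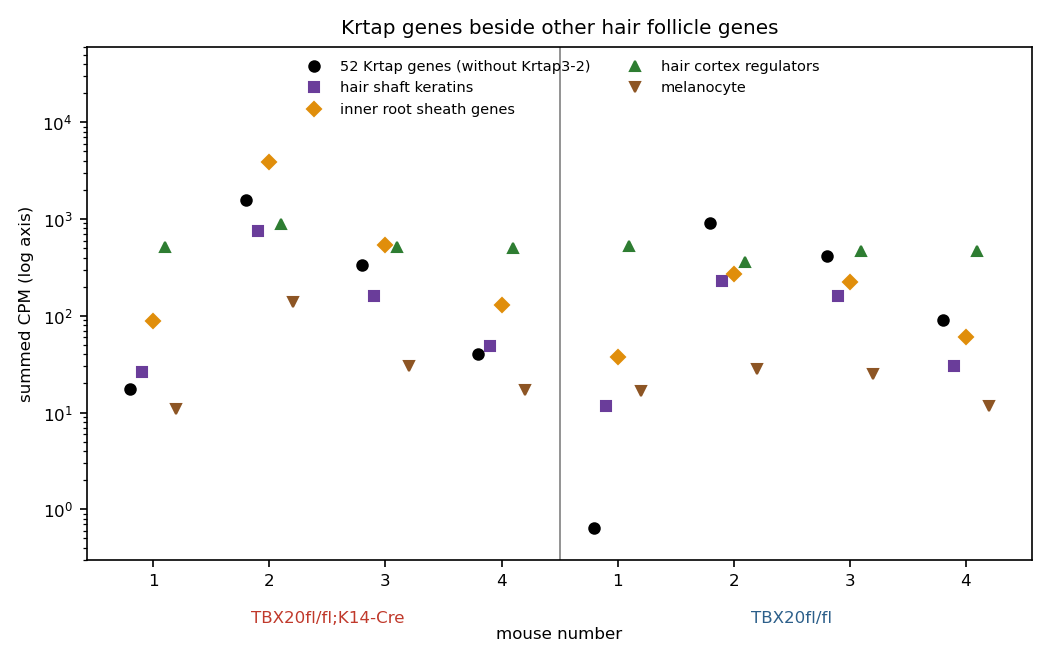
Summed CPM, on a logarithmic axis, of the 52 KAP genes without Krtap3-2 and of 4 lists of other follicle genes in each mouse. All 5 are highest in TBX20fl/fl;K14-Cre mouse 2, and in TBX20fl/fl mouse 2 the KAP sum is 909 CPM beside 268 CPM of inner root sheath genes and 361 CPM of regulators.

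Markers of the cell types that whole cheek skin can hold were followed beside the KAP genes, and their part in the KAP levels was not tested. The 5 melanocyte genes, whose pigment cells populate the growing bulb, summed to 139 CPM in TBX20fl/fl;K14-Cre mouse 2 and to 10.8 to 30.2 CPM in the other 7 mice, with none of 5 past an unadjusted p of 0.05, which 2.45% of all genes passed as higher and 5.91% as lower. Of 7 proliferation genes of the hair matrix 1 was higher at that level, and they summed to 239 to 586 CPM in TBX20fl/fl;K14-Cre and 240 to 380 CPM in TBX20fl/fl skin. Of 10 interfollicular epidermis genes 1 was lower, and of 9 outer root sheath and stem cell genes 2 were higher and 2 lower. Of 7 dermal papilla and fibroblast genes 2 were higher, and of 6 immune genes 3 were lower. Of 6 sebaceous, 5 adipocyte and 6 skeletal muscle genes none passed that level in either direction. Sums of the non-follicle lists varied by 1.46 to 3.10 between the highest and lowest mouse as a ratio, against 2462 for the 52 KAP genes.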

How the data were processed

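Cheek skin RNA of 8 mice, 4 for each genotype, was sequenced as single-end reads of 50 bases on a DNBseq instrument. Low-quality reads were removed by the authors in SOAPnuke, with -n at 0.05, -q at 0.2 and -l at 15, before alignment by HISAT. The deposited table gives estimated read counts and FPKM values per gene, which the authors took from the Dr. Tom platform. The counting program and the annotation are not given in the sources used here. Its TPM values, normalized read counts, 40 columns of group means and 51 columns of the authors' own comparisons (log2 fold changes, p-values and q-values) were not used.

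Groups came from the genotype recorded for each sample, and replicate numbers from the sample titles. The KAP genes, the gene lists and the tests were chosen with earlier results of these data known. The deposited estimated counts were first made whole by rounding. A gene was tested if the 8 libraries together held 10 counts of it or more, and TMM gave the scaling between libraries. Genotypes were compared with edgeR 4.0.16 (R 4.3.3, glmQLFit and glmQLFTest) on all genes tested, with genotype as the only term, and p-values were adjusted by Benjamini-Hochberg with a threshold of 0.05. Standard errors are those of the fitted log2 fold changes. P-values measure the spread among these mice. Sums and CPM in the text are of the counts as deposited or scaled, each mouse on its own. Depth was 16056282 to 19880654 counts in a library.

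Alternatives were DESeq2 size factors, upper-quartile scaling, no low-count filter and a stricter one, DESeq2 1.42.0, limma 3.58.1 on log2(FPKM + 1) and log2(FPKM + 0.1), a block for the mouse number, removal of the length trend, and leaving out each mouse. The labels number the mice 1 to 4 in each genotype. The deviations of mice of the same number from their genotype means correlated at 0.275, 0.293, 0.249 and 0.199 over all genes tested, and at 0.199, 0.269, 0.225 and 0.200 without the KAP genes. All 4 are above 0.1, so results with the number as a block are given beside those of the test above, which has no block. Mice of different numbers correlated at −0.411 to 0.343, the highest being TBX20fl/fl;K14-Cre mouse 4 with TBX20fl/fl mouse 1, above every same-number value. Without the KAP genes TBX20fl/fl;K14-Cre mouse 3 with TBX20fl/fl mouse 4, at 0.229, also lay above its same-number value. No source says what mice of 1 number share.

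Genes named were, for each composition class, the 3 with the highest mean FPKM, the 5 KAP genes with the smallest p, the 3 lowest and 3 highest fold changes at a mean count of at least 50, the 2 with the widest spread in CPM within each genotype, and up to 2 genes of each other list that the text describes. Genes outside this rule are said to have been chosen after their values were seen, or are given as members of a set. Composition was computed from the coding sequences of GENCODE M21 on GRCm38, promoters are from RefSeq on GRCm38.p6, and shared sequence is the share of 50-base stretches found in another annotated transcript. On simulated counts, edgeR recovered 189 of 200 genes changed 4-fold with 8 false calls among 16988 genes, and with the block 183 and 13. The simulated mice were drawn independently, with no order shared between genes or mouse numbers and no length trend. The changed genes were picked at random and not from the KAP genes. Power for the KAP genes cannot be read from these values. Tables were handled in pandas 2.3.3 and numpy 2.4.6 under Python 3.11.15.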

Additional observations from a re-analysis of the deposited data

Results flagged for a closer look

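Among 38 groups of 4 mice examined, 7 had their highest mouse apart from the other 3 by more than Dixon's criterion allows. For unselected values with a normal distribution about 1 in 20, or 1.9, would pass. Some of these genes were named for a small p or a wide spread in the same data, and normality of the CPM was not checked. The 1.9 is therefore no expectation for these groups. The criterion is the gap to the nearest mouse divided by the range of the group. In TBX20fl/fl;K14-Cre skin mouse 2 was the high one in 6 of them. The ratio was 0.921 for Krtap17-1 (35.5 CPM, next 4.01), 0.899 for Krtap10-4 (6.04, next 0.702), 0.897 for Krtap9-1 (9.84, next 1.14), 0.874 for Krtap16-1 (21.7, next 4.05), 0.871 for Krtap19-4 (7.42, next 0.954) and 0.842 for Krtap19-1 (6.04, next 0.954). In TBX20fl/fl skin the ratio was 1 for Krtap19-1, where mouse 4 had 0.0501 CPM, a single count, and the others 0. The 6 genes were read from the same library, so their ratios are not independent of each other.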

How the results depend on the processing

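No KAP gene passed the adjusted threshold in any of the 21 alternatives, with the mouse number as a block included. Counts at an unadjusted p under 0.05 and signs moved, and the cause was not tested except where stated. The counts of higher KAP genes can include genes that passed the filter only through the TBX20fl/fl;K14-Cre mice. They cannot be read against the shares given beside them. KAP genes higher at that level, 4 with genotype alone, were 1 under the stricter filter (2.39% of all genes), which took the other 3 out of the test, 1 and 1 in limma on log2(FPKM + 1) and log2(FPKM + 0.1) (3.16% and 2.5%), 10 with the replicate block (3.52%), 13 with the block and the length trend removed (1.27%), and 1 to 7 when 1 mouse was left out (1.41% to 3.69%). Genes lower, 0 with genotype alone, stayed at 0 without any 1 mouse, and genes without overlap numbered 1 to 2. Hair shaft keratins, 1 with genotype alone, were 2 in DESeq2's Wald test (both higher, against 3.12% of all genes), 0 in both limma fits, 7 with the block (all higher), 9 with the block and the length trend removed (8 higher and 1 lower, against 1.27% and 6.62%) and 0 to 3 without 1 mouse, all higher except 1 lower without TBX20fl/fl;K14-Cre mouse 2. The median log2 fold change, 0.72, was −0.73 to 2.18 without 1 mouse. The number of genes below 0, 12 with genotype alone, was 7 in limma on log2(FPKM + 1), 4 with the length trend removed, 7 with that and the block, and 0 to 34 without 1 mouse.

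Leaving out both mice numbered 2 and limma with the block were chosen after seeing the data. Without both mice 2, 1 KAP gene was higher (4.17% of all genes) and 20 were below 0. With the block added, 2 were lower (6.47%), 5 hair shaft keratins passed (4 higher and 1 lower, against 5.16% and 6.47%), the median was −0.050 and 25 were below 0. In limma with the block 10 KAP genes were higher (4.73%), 6 keratins passed (all higher) and 7 KAP genes were below 0.

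Of the 18 genes named by rule, 12 changed sign somewhere. Without 1 mouse the log2 fold change ran from −1.83 to 1.03 for Krtap1-3, −1.603 to 0.94 for Krtap1-4, −2.22 to 0.67 for Krtap14, −2.14 to 0.96 for Krtap15, −0.25 to 2.86 for Krtap17-1, −2.03 to 0.91 for Krtap22-2, −1.85 to 0.88 for Krtap7-1, −1.83 to 1.25 for Krtap8-1, −1.69 to 1.67 for Krtap9-1 and −2.35 to 0.69 for Krtap9-3. In limma with a pseudocount of 1 it was 0.13 for Krtap1-3, 0.094 for Krtap1-4 and 0.44 for Krtap7-1, the same with the block, and with one of 0.1 it was 0.70, 0.47 and 1.00, and 0.32 for Krtap9-3. With the block it was 0.031 for Krtap1-3 and 0.12 for Krtap7-1. With the length trend removed it was 0.025 for Krtap1-3, 0.065 for Krtap14, 0.29 for Krtap15, 0.45 for Krtap22-2 and 0.32 for Krtap7-1, and with the block as well 0.32 for Krtap1-3, 0.21 for Krtap1-4 and 0.54 for Krtap7-1. Without both mice 2 it was −0.74 for Krtap8-1 and −0.32 for Krtap9-1, and with the block as well 0.18 for Krtap1-3, 0.12 for Krtap1-4, −0.15 for Krtap16-3, −0.47 for Krtap21-1, −0.16 for Krtap8-1 and −0.018 for Krtap9-1. Over all genes tested the median, 0.026, moved by over 0.1 in 3 alternatives, to −0.15 with the length trend removed, with and without the block, and to 0.18 in limma with a pseudocount of 0.1. Genes under the floor of 3 counts in a library, most KAP genes in TBX20fl/fl mouse 1, cannot show a difference there.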
